A study of Homo sapiens with 40 samples.

Results

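The levels of 10 well-known long non-coding RNAs (lncRNAs), MALAT1, NEAT1, NORAD, KCNQ1OT1, PVT1, LINC-PINT, CYTOR, HOTAIR, H19 and MEG3, were followed through 24 RNA-seq libraries of breast epithelial and breast cancer cells. The 10 genes were chosen by symbol, out of 60708 genes in the count tables, of which 16792 belong to the lncRNA class of GENCODE. The libraries fall into 8 groups of 3. MI-spheres are MCF-10A cells, an immortalised breast epithelial line, and MII-spheres are MCF-10A-HRAS cells (MCF-10AneoT), the same line transformed with HRAS. Both were grown in 3D in ultra-low attachment plates, either untreated (Ctrl) or with TGFβ1 at 2.5 ng/ml for 16 hours. MDA-MB-231 cells, a triple-negative breast cancer line, were grown as monolayers in 4 groups: WT and SLUG KO, which were not transfected with siRNA, and Csi (scrambled siRNA) and siSMAD2/3/4 (siRNAs to SMAD2, SMAD3 and SMAD4), both without an edit of SNAI2. The SLUG KO cells were grown from single-cell colonies after Cas9 editing of SNAI2, and the sources do not say how many clones the 3 libraries hold. The siRNA libraries carry another batch label than the other 18, so that levels in them and in the WT or SLUG KO libraries cannot be compared apart from the batch.

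These transcripts act as RNA and are not translated. MALAT1 is retained in nuclear speckles, and NEAT1 is the scaffold of paraspeckles. NORAD binds Pumilio proteins in the cytoplasm. KCNQ1OT1, H19 and MEG3 are expressed from 1 parental allele of imprinted clusters, H19 being also the host of miR-675. HOTAIR lies in the HOXC cluster and was described as a partner of Polycomb complexes. PVT1 is the neighbour of MYC, LINC-PINT was described as a p53 target, and CYTOR as a regulator of cytoskeleton genes in cancer cells.

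Sequences of some members are given first, as background to their levels. MALAT1 (ENSG00000251562.8, chr11:65497688-65506516, plus strand, GRCh38) and NEAT1 (ENSG00000245532.9, chr11:65422774-65445540, plus strand) are neighbours on the chromosome. MALAT1 and the long NEAT1 transcript lack a conventional poly(A) tail, and their 3′ ends are made by cleavage before a tRNA-like small RNA, which GENCODE places at chr11:65506117-65506173 and chr11:65445541-65445598. The 100 bases before each small RNA are shown because the ends bear on which RNA a library kit can capture. The capitals mark a T-rich stretch and the A-rich tract at the end of the transcript. Both are known parts of a triple helix, the remaining strand of which is not marked.
MALAT1 chr11:65506017-65506116: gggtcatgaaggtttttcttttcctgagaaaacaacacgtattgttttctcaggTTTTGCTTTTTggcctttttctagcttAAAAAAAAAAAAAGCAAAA
NEAT1 chr11:65445441-65445540: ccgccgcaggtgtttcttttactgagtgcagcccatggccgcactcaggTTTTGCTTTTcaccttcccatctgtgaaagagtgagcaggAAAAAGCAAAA

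NORAD (ENSG00000260032.2, chr20:36045618-36051018, minus strand) is a single exon of 5401 bases that shares no exon base with another gene. It held 15 matches to the Pumilio element TGTANATA on the transcribed strand, or 2.78 per kilobase against 0.0958 per kilobase over the other GENCODE lncRNA transcripts. The 300 bases at chr20:36049462-36049761, minus strand, hold 3 of them, shown in capitals. This stretch was picked because no other stretch of 300 bases in NORAD holds more. At least 1 element was found in 2.38% of 217003 consecutive windows of 300 bases from lncRNA transcripts, and 3 or more in 0.0235%. Those windows were not picked for their count, so the shares do not measure how rare the NORAD stretch is.
NORAD: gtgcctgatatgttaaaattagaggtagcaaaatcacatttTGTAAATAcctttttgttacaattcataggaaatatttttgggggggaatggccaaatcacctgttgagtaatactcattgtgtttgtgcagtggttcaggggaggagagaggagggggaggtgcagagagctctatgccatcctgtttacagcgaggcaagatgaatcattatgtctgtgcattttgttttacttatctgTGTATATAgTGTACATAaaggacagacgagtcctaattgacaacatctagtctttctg

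CYTOR (ENSG00000222041.11, chr2:87454781-87636740, plus strand) has a near-identical copy, MIR4435-2HG (ENSG00000172965.17), on the same chromosome. Of 16943 words of 31 bases in the CYTOR exons, 62.9% also occur in MIR4435-2HG exons. The pair below differs at 1 of 100 bases, in capitals. A fragment from such a stretch that does not cover a differing base has no unique place. Only fragments with a high mapping quality were counted, so CYTOR levels rest on fragments that could be placed and are uncertain as absolute values.
CYTOR chr2:87455767-87455866, plus strand: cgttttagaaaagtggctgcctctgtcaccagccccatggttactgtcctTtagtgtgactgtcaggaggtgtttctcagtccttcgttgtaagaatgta
MIR4435-2HG chr2:111494664-111494763, minus strand: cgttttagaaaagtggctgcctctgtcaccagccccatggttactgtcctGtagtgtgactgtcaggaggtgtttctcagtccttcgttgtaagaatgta

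H19 (ENSG00000130600.19, chr11:1995176-2001470, minus strand) carries the 2 mature arms of miR-675, which RefSeq (GRCh38.p14) places inside it on the minus strand, at chr11:1996800-1996822 (5p) and chr11:1996768-1996787 (3p). Their sequences are given with the seed, bases 2 to 8, in capitals. The seeds differ, and the miRNAs themselves were not measured here.
hsa-miR-675-5p: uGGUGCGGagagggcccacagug
hsa-miR-675-3p: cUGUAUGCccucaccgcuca

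The other gene models set limits on what their counts mean. KCNQ1OT1 (ENSG00000269821.1, chr11:2608328-2699994, minus strand) is 1 exon of 91667 bases lying antisense within KCNQ1, and strand was ignored in counting, so intronic RNA of KCNQ1 would be counted to it. KCNQ1 itself had a mean level of at most 0.39 CPM (counts scaled to the TMM-adjusted library size) in any group. LINC-PINT (ENSG00000231721.7, chr7:130938963-131110176, minus strand) shares 29.6% of its exon bases with other genes, and fragments over such bases were not counted. HOTAIR (ENSG00000228630.5, chr12:53962308-53974956, minus strand) and MEG3 (ENSG00000214548.18, chr14:100779410-100861031, plus strand) share 6.38% and 2.58%. PVT1 (ENSG00000249859.12, chromosome 8, plus strand) shares 3.07%. The counts of NEAT1 cannot separate its short from its long transcript.

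Total counts were 14124688 to 38406952 per library. Replicates of the sphere, SLUG KO and siRNA groups correlated across genes with r of at least 0.996, and WT replicate 2 stood apart, with r of 0.958 and 0.954 to the other two. The epithelial marker CDH1 (E-cadherin) was at 526.8 CPM in MI Ctrl and 1.23 CPM in WT MDA-MB-231 cells. The mesenchymal marker VIM showed the opposite order (1.71 and 784.1 CPM). EPCAM, KRT5, ESRP1, GRHL2 and CLDN1 were also lower in WT, and ZEB1 and FN1 higher. KRT14 was lower in WT as well, though low in both (1.56 and 0.14 CPM). The other listed markers did not separate the groups in this way. KRT8 (631.6 and 601.5 CPM) and KRT18 (546.2 and 461.3 CPM) were high in both. CDH2 (1.54 and 1.18 CPM) and SPARC (0.30 and 0.58 CPM) were low in both. HRAS was at 40.7 CPM in MI Ctrl and 220.2 CPM in MII Ctrl. SMAD2 fell from 90.5 to 23.9 CPM and SMAD4 from 55.3 to 16.8 CPM after siRNA. The RNA of SMAD3, also a target, was reduced less, from 266.2 to 165.4 CPM. SNAI2 was at 28.3 CPM in WT and 61.8 CPM in SLUG KO (log2 fold-change 1.10, adjusted p = 0.0443, edgeR), so the RNA was not lower in the libraries labelled SLUG KO, but the gene-level count does not test an edit in its exon 1.

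The members covered a wide range of levels. Per length, the order in MI Ctrl was led by MALAT1 at 672.2 ± 32.2 FPKM (CPM divided by the exon length in kilobases, mean ± SD, n = 3), then NORAD at 300.3 and NEAT1 at 242.1 FPKM. PVT1, H19, LINC-PINT, HOTAIR, CYTOR and KCNQ1OT1 lay between 2.62 and 0.700 FPKM. MEG3 was near the limit of counting at 0.0051 FPKM. MALAT1, NEAT1 and NORAD together held 94.3% to 98.8% of the members' counts in every library. All 10 together held 1.26% to 1.37% of an MI Ctrl library and 1.61% to 1.70% of an MII Ctrl library.

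**Figure D1:**
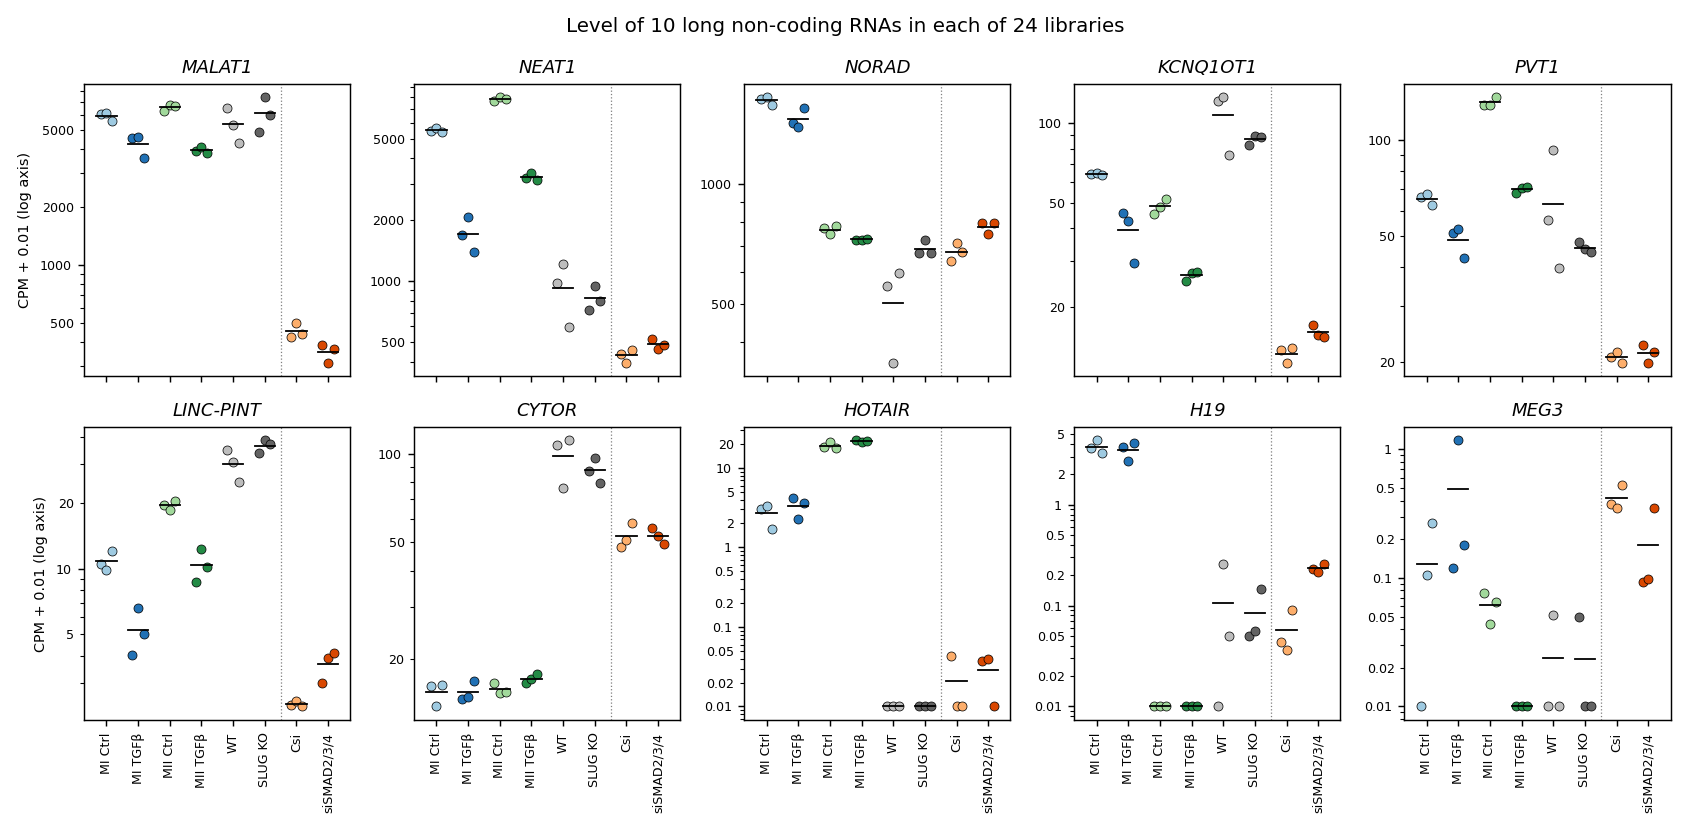
Level of each lncRNA (CPM + 0.01, log axis) in 24 libraries, 1 panel per gene with its own scale; points are libraries, bars are group means, and the dotted line separates the siRNA batch. NEAT1 lay between 5395 and 8024 CPM in unstimulated spheres and between 1382 and 3405 CPM with TGFβ1, and H19 points at the bottom of MII are libraries with no count.

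The first comparison asked how TGFβ1 changed these RNAs in spheres. In both lines 6 members fell and 0 rose, out of 9 that passed the expression filter in MI and 8 in MII. The 6 were NEAT1, LINC-PINT, KCNQ1OT1, PVT1, MALAT1 and NORAD in each line. A gene was tested if it passed edgeR's expression filter, and it was called with an adjusted p under 0.05 (edgeR quasi-likelihood test, Benjamini-Hochberg over all genes tested). Over all genes tested in MI, 27.4% were called lower and 28.7% higher. In MII these shares were 27.7% and 30.0%. Among genes of the lncRNA class, 39.0% were called lower and 6.07% higher in MI, and 47.2% lower and 3.06% higher in MII. The median log2 fold-change of the members tested was -0.51 in MI and -0.84 in MII, beside -0.55 and -0.61 for the lncRNA class and -0.02 in each line for all genes tested.

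NEAT1, the paraspeckle scaffold, changed most. Its levels in MI Ctrl were 5471, 5673 and 5395 CPM, and with TGFβ1 1675, 2054 and 1382 CPM. In MII Ctrl they were 7693, 8024 and 7880 CPM, and with TGFβ1 3224, 3405 and 3124 CPM. The groups did not overlap in either line. The log2 fold-change was -1.77 ± 0.15 (SE) in MI (adjusted p = 5.12e-05, edgeR) and -1.31 ± 0.03 in MII (adjusted p = 6.08e-47).

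MALAT1, the speckle RNA, was at 6038, 6153 and 5614 CPM in MI Ctrl and at 4581, 4598 and 3610 CPM with TGFβ1. In MII it was at 6329, 6773 and 6701 CPM in Ctrl and at 3899, 4088 and 3821 CPM with TGFβ1. All stimulated libraries lay below all unstimulated ones of their line. The log2 fold-changes were -0.56 ± 0.08 (adjusted p = 3.00e-05) and -0.78 ± 0.03 (adjusted p = 3.25e-33, edgeR). Both genes whose 3′ ends are shown above fell in both lines, as did LINC-PINT, KCNQ1OT1, PVT1 and NORAD, whose ends are not shown.

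PVT1, the neighbour of MYC, was at 66.2, 67.5 and 62.3 CPM in MI Ctrl and at 50.8, 52.5 and 42.5 CPM with TGFβ1. In MII it was at 128.6, 128.7 and 136.5 CPM in Ctrl and at 68.3, 70.6 and 71.2 CPM with TGFβ1. The fall was larger in MII: log2 fold-changes were -0.51 ± 0.07 (adjusted p = 4.20e-06) and -0.94 ± 0.05 (adjusted p = 3.29e-29). The difference between the lines was -0.42 ± 0.09 (interaction, adjusted p = 1.76e-04, edgeR). It was the 1 member whose interaction passed, of 9 with a fit. Over all genes, 9.85% had a lower and 12.7% a higher interaction. MYC itself rose by 0.47 in MI (adjusted p = 1.66e-08) and fell by 0.26 in MII (adjusted p = 4.34e-05) on the log2 scale.

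The interactions of MALAT1 (-0.21 ± 0.11, adjusted p = 0.215, alternatives 2.83e-09 to 0.319) and NEAT1 (0.47 ± 0.18, adjusted p = 0.102, alternatives 5.44e-10 to 0.174) did not pass. Without MI TGFβ replicate 3, which had the lowest NEAT1, MALAT1 and KCNQ1OT1 of its group, the interactions of MALAT1 (-0.36), NEAT1 (0.30), KCNQ1OT1 (-0.31) and NORAD (0.14) passed beside PVT1, so that 5 members did. MALAT1 also passed without MI Ctrl replicate 2 or MII TGFβ replicate 2, and NEAT1 without MI TGFβ replicate 2 (0.60). NEAT1 passed as well with DESeq2 (0.47), without the expression filter and with a gene-length trend.

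LINC-PINT fell from 10.5, 9.87 and 12.04 CPM to 4.00, 6.63 and 5.02 CPM in MI, and from 19.5, 18.5 and 20.4 CPM to 8.72, 12.3 and 10.2 CPM in MII. The log2 fold-changes were -1.11 ± 0.15 (adjusted p = 1.03e-06) and -0.93 ± 0.10 (adjusted p = 2.32e-12). KCNQ1OT1, the imprinted antisense RNA, was at 63.9, 64.9 and 63.8 CPM in MI Ctrl and at 45.5, 42.6 and 29.4 CPM with TGFβ1. In MII it was at 45.3, 48.0 and 51.6 CPM in Ctrl and at 25.3, 26.9 and 27.2 CPM with TGFβ1. Neither gene's groups overlapped, and KCNQ1OT1 changed by -0.80 ± 0.15 (adjusted p = 0.00253) and -0.91 ± 0.07 (adjusted p = 7.65e-20).

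NORAD, which binds Pumilio proteins, changed least of the 6. It was at 1634, 1652 and 1580 CPM in MI Ctrl and 1421, 1387 and 1553 CPM with TGFβ1, and at 773.0, 746.3 and 784.3 CPM and 724.2, 722.1 and 729.0 CPM in MII. The groups did not overlap, though the gap was narrow in both lines. The log2 fold-changes were -0.24 ± 0.05 (adjusted p = 4.52e-04) and -0.12 ± 0.03 (adjusted p = 0.00176). In 1 fit of all 12 sphere libraries the difference in MII was -0.08 and did not pass. Among the proteins listed as NORAD partners, the RNA-binding protein KHDRBS1 rose in both lines (log2 fold-change 0.26 in MI and 0.34 in MII), and RBMX rose in MI (0.24) and fell in MII (-0.12). The log2 fold-change of PUM2 was -0.26 in MII, where it passed, and 0.05 in MI, where it did not.

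CYTOR and HOTAIR did not pass in either line. CYTOR was at 16.2, 13.8 and 16.2 CPM in MI Ctrl and 14.6, 14.8 and 16.8 CPM with TGFβ1. HOTAIR was at 3.05, 3.27 and 1.71 CPM in MI Ctrl and 4.11, 2.28 and 3.62 CPM with TGFβ1, and at 18.1, 21.4 and 17.8 CPM against 22.1, 21.1 and 21.7 CPM in MII. H19 was at 3.62, 4.33 and 3.22 CPM in MI Ctrl and 3.73, 2.73 and 4.08 CPM with TGFβ1 (log2 fold-change -0.17 ± 0.18, adjusted p = 0.448). CYTOR in MII was at 16.5, 15.3 and 15.4 CPM in Ctrl and 16.5, 17.1 and 17.7 CPM with TGFβ1. The groups of these genes overlapped. HOTAIR passed in MII (0.24 on the log2 scale) without MII Ctrl replicate 2 and with a gene-length trend (0.20). MEG3 had 0, 2 and 5 counts in MI Ctrl and 2, 26 and 4 with TGFβ1, and at most 1 count in any MII library, and did not pass the expression filter. Without that filter it was called higher in MI (log2 fold-change 2.03, adjusted p = 0.0260, edgeR), with 26 of its counts in MI TGFβ replicate 2.

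**Figure D2:**
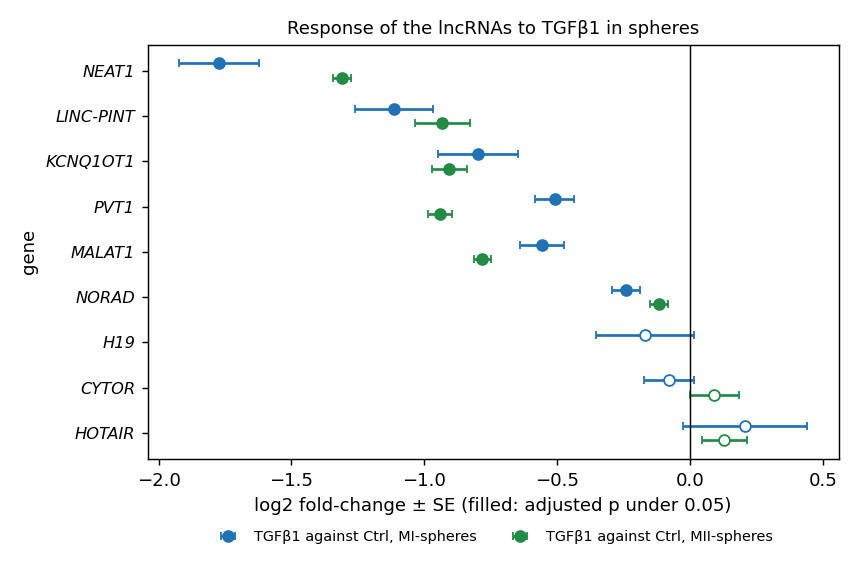
Log2 fold-change (± SE) of TGFβ1 against Ctrl in MI- (blue) and MII-spheres (green), 3 against 3 libraries; filled points passed an adjusted p under 0.05. NEAT1 lies at -1.77 and -1.31, and PVT1 and MALAT1 have the lower value in MII.

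The protein partners did not move as one. Of 18 paraspeckle and speckle proteins tested, 7 rose and 4 fell in MI, and 6 rose and 7 fell in MII (median log2 fold-change 0.10 and -0.04), beside 28.7% higher and 27.4% lower of all genes in MI and 30.0% and 27.7% in MII. NONO, which NEAT1 binds directly in paraspeckles, rose in MI and MII with log2 fold-changes of 0.37 and 0.24, whereas its partner SFPQ fell (-0.26 and -0.32). The speckle scaffold SRRM2 fell (-0.93 and -1.36). Of 11 imprinted neighbours listed, 4 passed the expression filter, of which 2 fell in MI and 3 in MII and 0 rose in either, beside the same shares of all genes. CDKN1C, a cell cycle inhibitor in the KCNQ1OT1 cluster, was among them, with log2 fold-changes of -0.86 in MI and -1.88 in MII.

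The composition of the libraries moved with TGFβ1 as well. Genes of the lncRNA class held 2.33% to 2.46% of counts in MI Ctrl and 1.32% to 1.59% with TGFβ1, and 3.08% to 3.18% and 1.67% to 1.76% in MII. Mitochondrially encoded genes held 0.687% to 0.789% in MI Ctrl and 0.423% to 0.572% with TGFβ1, and 1.41% to 1.66% and 1.02% to 1.18% in MII. Histone genes went opposite ways in the lines, from 0.333% to 0.347% in MI Ctrl to 0.271% to 0.286% with TGFβ1, and from 0.258% to 0.263% to 0.425% to 0.457% in MII. The TMM factors were 0.824 to 0.890 with TGFβ1 and 0.986 to 1.01 in MI Ctrl, and without them the falls were larger (NORAD 1621 to 1247 CPM, NEAT1 5510 to 1471 CPM). In MII the factors were 1.07 to 1.08 in Ctrl and 0.951 to 0.963 with TGFβ1 (without them NORAD 823.9 to 694.1 CPM, NEAT1 8440 to 3112 CPM). Summed epithelial markers were at 2265 to 2285 CPM in MI Ctrl and 2987 to 3173 CPM with TGFβ1, and summed mesenchymal markers at 56.4 to 62.4 and 266.5 to 297.1 CPM. In MII the epithelial sum was 3402 to 3419 and 4351 to 4507 CPM and the mesenchymal sum 140.5 to 146.3 and 163.4 to 177.0 CPM. Of 9 epithelial markers, 4 rose and 2 fell (GRHL2 and CLDN1) in MI, and 6 rose and 0 fell in MII. Of all genes 28.7% rose and 27.4% fell in MI, and 30.0% and 27.7% in MII. Most of the mesenchymal sum was FN1, at 55.3 and 261.9 CPM in MI and 133.8 and 146.1 CPM in MII. FN1 did not pass in MII, whereas VIM and CDH2 rose in both lines. The part of these shifts in the falls was not tested. In bulk samples, fewer cells with an RNA and less of it per cell cannot be told apart.

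**Figure D3:**
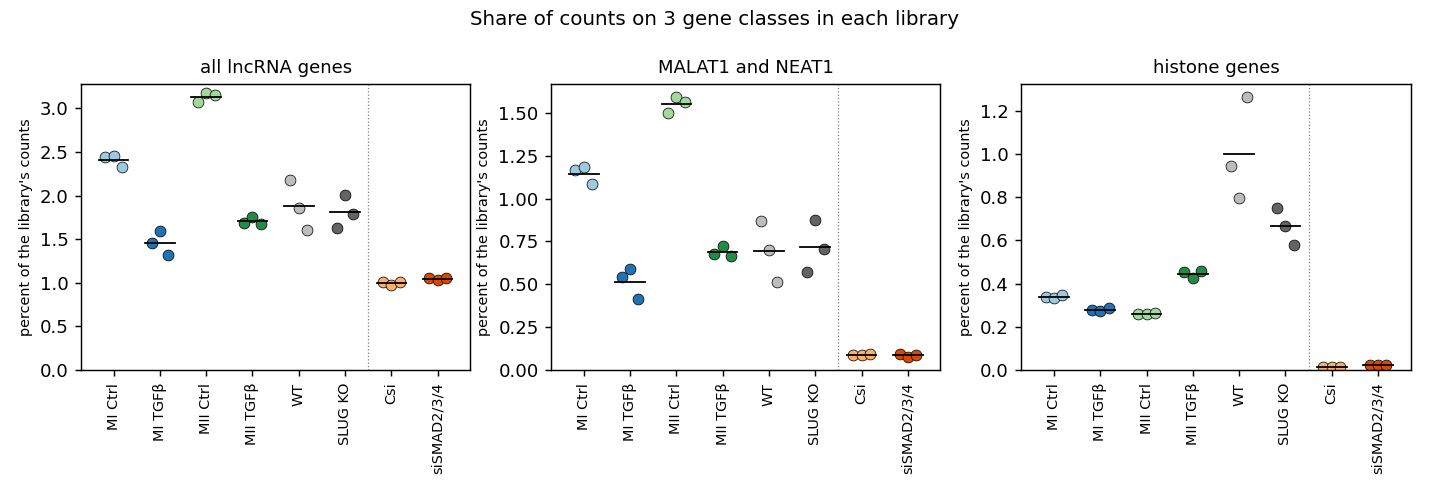
Share of each library's counts on all lncRNA genes, on MALAT1 with NEAT1, and on histone genes, in percent; points are libraries and bars group means, and the dotted line separates the siRNA batch. With TGFβ1 the share of MALAT1 and NEAT1 went from 1.09% to 1.18% in MI Ctrl to 0.411% to 0.592%, and it was 0.0785% to 0.0911% in the siRNA batch.

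The second comparison set unstimulated spheres of the HRAS-transformed line MII against those of its parental line MI. Each is a single line, so HRAS and any other difference between the lines cannot be told apart. Of 9 members tested, 5 were higher and 3 lower in MII, CYTOR being the exception. Among the lower, H19 passed the expression filter only through MI Ctrl, so its direction was fixed in advance. Over all genes 31.8% were higher and 32.6% lower. In the lncRNA class 34.4% were higher and 10.1% lower. HOTAIR, the HOXC antisense RNA, was at 3.05, 3.27 and 1.71 CPM in MI and at 18.1, 21.4 and 17.8 CPM in MII, a log2 fold-change of 2.83 ± 0.13 (adjusted p = 2.65e-33, edgeR). Among its neighbours, 3 were higher (log2 fold-change of HOXC11 0.74, HOXC13 0.69 and HOXC9 0.46) and 3 lower (HOXC4 -2.09, HOXC8 -1.01 and HOXC6 -0.72), of 6 tested. HOXC4 and HOXC8, at no more than 0.28 and 0.60 CPM in MII Ctrl, met the expression filter through MI Ctrl. The filter therefore fixed or favoured their direction.

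H19 went the other way. It had 94, 90 and 62 counts in MI Ctrl and no count in any of the 6 MII libraries with or without TGFβ1, whereas MI TGFβ had 68, 61 and 96. The groups did not overlap. Against 3 counts over the MII Ctrl group, H19 was at least 78.3-fold higher in MI Ctrl, and at least 52.2-fold higher in MI TGFβ than in MII TGFβ. These are bounds from counting error only. The hosted miR-675 sequences above were not assayed. IGF2, its neighbour in the cluster, was at or near 0 in every group.

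NORAD fell from 1622 ± 37.4 CPM in MI to 767.9 ± 19.5 in MII (SD, n = 3), by 1.07 ± 0.03 on the log2 scale (adjusted p = 4.81e-46). PVT1 rose by 1.02 ± 0.04, from 65.4 ± 2.71 to 131.3 ± 4.55 CPM (adjusted p = 3.45e-36), and LINC-PINT by 0.86 ± 0.09 (adjusted p = 6.32e-14). MYC fell by 1.32 on the log2 scale, opposite to PVT1. NEAT1 was higher by 0.52 ± 0.03 (adjusted p = 6.49e-25) and MALAT1 by 0.16 ± 0.04 (adjusted p = 2.72e-05). KCNQ1OT1 was lower, with a log2 fold-change of -0.40 ± 0.05 (adjusted p = 4.26e-10). The MALAT1 call ended when a trend with gene length was removed (0.03) and in the fit of all 12 sphere libraries (0.17). CYTOR was at 15.4 CPM in MI and 15.7 CPM in MII (0.03 ± 0.09, adjusted p = 0.747).

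The third comparison, SLUG KO against WT, concerned MDA-MB-231 libraries labelled as edited in SNAI2, which encodes a repressor of epithelial genes. Loss of SNAI2 is not shown by the counts, as given above. Of 7 members tested, 0 passed (edgeR), 0 had an unadjusted p under 0.05, and DESeq2 called 0. Over all genes 1.34% were higher and 1.80% lower. The WT group spread widely. NEAT1 was at 975.9, 1214 and 598.1 CPM in WT and 719.4, 943.9 and 801.1 CPM in SLUG KO. PVT1 was at 55.9, 93.2 and 39.5 CPM in WT and at 47.6, 45.3 and 44.6 CPM in SLUG KO. NORAD was at 553.1, 355.4 and 595.9 CPM in WT and 669.0, 722.2 and 670.3 CPM in SLUG KO, the groups not overlapping (log2 fold-change 0.43 ± 0.23, adjusted p = 0.360).

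WT replicate 2 had the highest PVT1, NEAT1 and KCNQ1OT1 and the lowest NORAD and CYTOR. Without it, 2 members passed: NORAD at 0.25 and CYTOR at -0.32 on the log2 scale, and calls over all genes went from 548 to 5621. On simulated counts with the same spread, the test recovered 5 of 100 genes changed 2-fold and 71 of 100 changed 4-fold, so modest changes were not detectable in the full group. MALAT1 (6561, 5295 and 4318 CPM in WT, 4892, 7442 and 6003 in SLUG KO) and LINC-PINT (34.9, 30.8 and 24.9 against 33.8, 38.6 and 37.2 CPM) overlapped. So did KCNQ1OT1 (121.4, 125.9 and 75.6 against 83.0, 89.8 and 89.0 CPM) and CYTOR (106.9, 76.4 and 111.1 against 87.4, 96.9 and 79.3 CPM). HOTAIR had no count in any of the 6 libraries, H19 had 7 and 5 counts and MEG3 1 and 1 over the groups, and none was tested.

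The fourth comparison, siSMAD2/3/4 against Csi, asked which members depend on the SMAD proteins, the transducers of TGFβ, in MDA-MB-231 cells. Of 8 tested, 4 were higher and 1 lower. Over all genes 16.3% were higher and 19.8% lower, and in the lncRNA class 8.91% and 4.42%. NORAD was at 642.1, 709.2 and 674.3 CPM in Csi and at 795.7, 747.8 and 799.5 CPM after siRNA (0.20 ± 0.04, adjusted p = 3.28e-05, edgeR). LINC-PINT was at 2.38, 2.48 and 2.33 CPM and at 2.98, 3.91 and 4.11 CPM (0.61 ± 0.17, adjusted p = 0.00416). Neither gene's groups overlapped.

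NEAT1 was at 439.4, 396.3 and 461.0 CPM in Csi and 521.7, 463.3 and 486.8 CPM after siRNA, a narrow gap (0.18 ± 0.05, adjusted p = 0.00506). KCNQ1OT1 was at 13.7, 12.3 and 14.0 CPM and at 17.2, 15.8 and 15.4 CPM (0.27 ± 0.08, adjusted p = 0.00952). MALAT1 was lower, at 425.0, 501.9 and 442.8 CPM against 384.8, 312.3 and 368.8 CPM (-0.37 ± 0.10, adjusted p = 0.0353). The file names show that siSMAD2/3/4 replicates 1 and 2 came from another flow cell. With flow cell as a term, the difference rests on siSMAD2/3/4 replicate 3 alone against the Csi libraries, and the lone library is assumed to vary like the others, so that fit does not test a flow cell effect. In it NORAD (0.25) and LINC-PINT (0.79) passed, and NEAT1 (0.18), KCNQ1OT1 (0.22) and MALAT1 (-0.30) had log2 fold-changes near those above but did not pass. MALAT1 also lost its call without Csi replicate 1 or siSMAD2/3/4 replicate 3, KCNQ1OT1 without Csi replicate 2 or siSMAD2/3/4 replicate 1, and NEAT1 without siSMAD2/3/4 replicate 3. Mitochondrially encoded genes held 3.81% to 4.95% of counts in Csi and 4.87% to 6.02% after siRNA, and histone genes 0.0133% to 0.0136% and 0.0227% to 0.0234%. The part of these shifts was not tested.

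MEG3, a gene of the imprinted DLK1 cluster, had 11, 13 and 19 counts in Csi and 3, 3 and 11 counts after siRNA (log2 fold-change -1.29 ± 0.54, adjusted p = 0.0619), and passed without siSMAD2/3/4 replicate 3 (-2.23). MEG3 met the expression filter only through Csi, so its direction was fixed in advance. PVT1 (20.8, 21.5 and 19.95 against 22.6, 19.9 and 21.6 CPM) and CYTOR (48.2, 51.0 and 58.0 against 55.8, 52.6 and 49.4 CPM) overlapped and did not pass. H19 had 1, 1 and 3 counts in Csi and 8, 7 and 8 after siRNA, and was not tested. HOTAIR had 1 count in all Csi libraries together and 2 after siRNA.

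**Figure D4:**
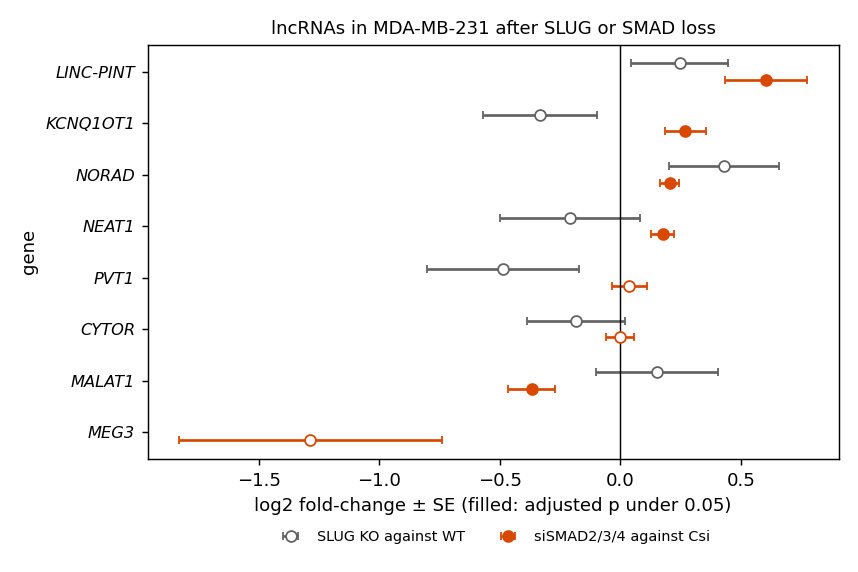
Log2 fold-change (± SE) of SLUG KO against WT (grey) and siSMAD2/3/4 against Csi (orange) in MDA-MB-231 cells, 3 against 3 libraries each; filled points passed an adjusted p under 0.05. No SLUG KO point is filled, and NORAD lies at 0.43 and 0.20.

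The 18 paraspeckle and speckle proteins gave 1 higher and 14 lower after siSMAD2/3/4 (median log2 fold-change -0.24), beside 16.3% higher and 19.8% lower of all genes. Levels in this batch differed from those of WT cells of the same line in both directions. MALAT1 averaged 456.6 CPM in Csi and 5392 CPM in WT, NEAT1 432.2 and 929.3 CPM, LINC-PINT 2.39 and 30.2 CPM, KCNQ1OT1 13.3 and 107.6 CPM, PVT1 20.7 and 62.9 CPM, and CYTOR 52.4 and 98.1 CPM. NORAD was higher in Csi, at 675.2 against 501.4 CPM, and MEG3 had 43 counts in Csi and 1 in WT. Histone genes, whose mRNAs lack poly(A) tails, held 0.0133% to 0.0136% of counts in Csi and 0.794% to 1.26% in WT. Mitochondrially encoded genes held 3.81% to 4.95% and 0.656% to 2.40%. The sources name the same ribosomal RNA depletion kit for all libraries, and whether the siRNA batch was made with it was not tested. The part of these differences in the lncRNA levels was not tested either, and transfection, batch and any difference in kit cannot be told apart.

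The last comparison set WT MDA-MB-231 cells against unstimulated MI-spheres, where line, medium and 2D or 3D growth cannot be told apart. Of 9 tested, 3 were higher and 4 lower in MDA-MB-231. Among the lower, H19 and HOTAIR passed the expression filter only through MI Ctrl, so their direction was fixed in advance. Over all genes 27.7% were higher and 25.6% lower. CYTOR was at 106.9, 76.4 and 111.1 CPM in WT and at 16.2, 13.8 and 16.2 CPM in MI Ctrl (2.67 ± 0.22, adjusted p = 6.84e-05). Its copy MIR4435-2HG averaged 129.2 and 22.1 CPM, and reads shared by the copies were not counted to either. LINC-PINT was higher by 1.48 ± 0.20 (adjusted p = 7.70e-04) and KCNQ1OT1 by 0.74 ± 0.23 (adjusted p = 0.0296). The call of KCNQ1OT1 was lost without WT replicate 1 or any 1 of the MI Ctrl libraries.

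HOTAIR had no count in the WT libraries and 79, 68 and 33 counts in MI Ctrl, which puts it at least 67.5-fold higher in MI Ctrl than 3 counts over the WT group. MII Ctrl, with 274, 639 and 320 counts, was at least 481.2-fold higher on the same floor. Of the HOXC genes near HOTAIR, HOXC13 averaged 12.1 CPM and HOXC11 4.50 CPM in MI Ctrl and neither had a count in WT. The HOXC genes tested here passed the filter through MI Ctrl, so no count of them is given. NEAT1 (log2 fold-change -2.57 ± 0.29, adjusted p = 3.02e-04) and NORAD (-1.70 ± 0.24, adjusted p = 8.52e-04) were also lower in WT. For H19 the log2 fold-change was -5.25 ± 0.72, in the direction that the filter fixed. MALAT1 (-0.14 ± 0.21, adjusted p = 0.582) did not pass. On simulated counts this test recovered 6 of 100 genes changed 2-fold and 59 of 100 changed 4-fold, so a modest difference could be missed. H19 had 0, 6 and 1 counts in WT. Without WT replicate 2 the same 7 calls stood, and PVT1 also passed, at -0.48 against -0.06 with it. H19 was at -7.27 without that library.

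The promoters of the members with an entry in RefSeq (GRCh38.p14) were searched on both strands for CAGAC, the core of SMAD binding, CAGGTG, an E-box bound by SNAI2, and TGANTCA, the AP-1 element. Of all 35116 promoter windows, 45.3%, 20.6% and 7.71% hold these letters. Both windows of MALAT1 held none of the motifs, nor did 3 of the 4 windows of LINC-PINT. Of these LINC-PINT windows, those at chr7:131109867-131110166 and chr7:131109876-131110175 overlap almost wholly. The remaining LINC-PINT window, at chr7:130913261-130913560, held 2 CAGAC and 2 AP-1 matches. It lies beyond the 3′ end of the LINC-PINT model that was counted. The window of H19 held 1 CAGAC and 1 CAGGTG. The 3 windows of MEG3, which also overlap, held 1 CAGAC each. NORAD held 1 CAGAC, and CYTOR held 2 AP-1 matches, shown in capitals. These are matches of letters and not sites of binding. NEAT1, KCNQ1OT1, HOTAIR and PVT1 had no entry.
NORAD chr20:36050911-36051210, minus strand: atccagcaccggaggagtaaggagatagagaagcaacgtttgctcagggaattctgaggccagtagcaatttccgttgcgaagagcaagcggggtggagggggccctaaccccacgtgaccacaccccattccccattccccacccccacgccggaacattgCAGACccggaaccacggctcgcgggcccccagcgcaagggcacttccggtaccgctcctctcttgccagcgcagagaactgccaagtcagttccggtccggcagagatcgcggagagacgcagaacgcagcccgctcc
CYTOR chr2:87455177-87455476, plus strand: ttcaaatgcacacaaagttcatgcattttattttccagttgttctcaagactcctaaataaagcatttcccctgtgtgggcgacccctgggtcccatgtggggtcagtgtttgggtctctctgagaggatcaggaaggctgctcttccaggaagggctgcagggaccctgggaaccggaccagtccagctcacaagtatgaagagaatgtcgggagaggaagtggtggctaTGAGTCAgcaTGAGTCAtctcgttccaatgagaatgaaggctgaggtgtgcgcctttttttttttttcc

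Ordered by group means, NEAT1 was highest in MII Ctrl, then MI Ctrl, MII TGFβ and MI TGFβ, and none of these neighbours overlapped. WT and SLUG KO followed and overlapped each other. MALAT1 was highest in MII Ctrl, but SLUG KO, MI Ctrl and WT overlapped their neighbours in the order. KCNQ1OT1 and CYTOR were highest in WT and LINC-PINT in SLUG KO, each overlapping the other MDA-MB-231 group of that batch. HOTAIR was highest in MII TGFβ, overlapping MII Ctrl, and NORAD was highest in MI Ctrl without overlap.

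Over the 18 libraries of the larger batch, the genes whose log2 CPM was most like that of a member were, by Pearson's r among 16400 genes, MIR31HG and VTCN1 for HOTAIR (both 0.994), NDP for CYTOR (0.996), CHKA for LINC-PINT (0.979), PCMTD2 for NORAD (0.978), FBXL19-AS1 for NEAT1 (0.975), IRF7 for PVT1 (0.954), NR2C2 for KCNQ1OT1 (0.943) and FAR1-IT1 for MALAT1 (0.861). These libraries fall into cell line and treatment groups that all genes share, so the values describe the pattern over groups.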

How the data were processed

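RNA-seq of 24 libraries was analysed, and 16 ATAC-seq samples of the series were not analysed here. Per the sources, the authors prepared all libraries by ribosomal RNA depletion, although the histone share of the siRNA batch differs; they trimmed reads with Trimmomatic, aligned them with STAR to GRCh38 and deposited raw fragment counts per GENCODE v38 gene from featureCounts 2.0.0. Strand was ignored, fragments over exons of more than 1 gene were dropped, and a mapping quality of 30 was required. Groups came from the labels. The members and lists were chosen with earlier results of these data known. Counts of each comparison's libraries were filtered with filterByExpr, scaled with TMM and tested with edgeR 4.0.16 in R 4.3.3 (quasi-likelihood, robust), with Benjamini-Hochberg adjustment over all genes and a threshold of 0.05. The SE is the log2 fold-change over the root of its F statistic. CPM and FPKM used TMM factors over all libraries. All members were named, with genes of the partner lists; some items are not reported here. The labels call libraries biological replicates; how cultures were separated is not given in the sources used here. Bounds used a floor of 3 counts. Alternatives included DESeq2 1.42.0, other scalings and filters, a length trend and leaving out libraries. The test was checked on simulated counts.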

Additional observations from a re-analysis of the deposited data

Results flagged for a closer look

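The fall of PVT1 with TGFβ1 differed between the lines. The log2 fold-change was 0.42 lower in MII- than in MI-spheres, that is -0.42 ± 0.09 for the interaction (adjusted p = 1.76e-04, edgeR quasi-likelihood test, Benjamini-Hochberg), with 12 libraries in the fit. Over the 19 alternatives its adjusted p was 2.53e-10 to 0.00167.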

How the results depend on the processing

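Of 935 alternative values, 853 kept their direction and side of the threshold, 20 lost and 23 gained the threshold, 12 counts or levels moved by more than the allowed range and 27 turned direction, none of these passing. Counts of members passing with TGFβ1 in MI or MII, for MII against MI and for WT against MI stayed within 1.5 times. The interaction, with 1 member, gave 2 with DESeq2, 3 without a low-count filter, 2 with a gene-length trend, 2 with the replicate block, 3 with the replicate block and gene-length trend, and 1 to 5 when leaving out 1 library. SLUG KO gave 0 to 2 when leaving out 1 library, and siSMAD2/3/4 gave 2 with flow cell as a term, a fit whose treated arm is 1 library. Without TMM, the order of the groups was kept for 6 of 10 members. Directions turned with the gene-length trend, without and with the block, for the KCNQ1OT1 interaction (0.0466 and 0.0447), for CYTOR in MII against MI (-0.18 and -0.16), and in SLUG KO for NEAT1 (0.0955 and 0.13), KCNQ1OT1 (0.24 and 0.25) and CYTOR (0.0375 and 0.0595). CYTOR turned in MII against MI without a filter (-0.0035), and after siSMAD2/3/4 with DESeq2 (0.00112), DESeq2 size factors (0.00383), a minimum of 10 counts (0.00934) and the block (0.00123). Leaving out 1 library gave -0.000982 to 0.42 for HOTAIR in MI, -0.31 to 0.12 for its interaction, -0.0461 to 0.0691 for CYTOR in MII against MI, -0.0452 to 0.0779 for CYTOR after siSMAD2/3/4, -0.0020 to 0.35 for MALAT1 and -0.43 to 0.0466 for NEAT1 in SLUG KO, and -0.48 to 0.17 for PVT1 in WT against MI. The cause was not tested. Same-numbered libraries deviated together with r of -0.185 to 0.0655, so they share only a number. With the replicate block 6, 6, 8, 0, 5 and 6 members passed for TGFβ1 in MI and MII, MII against MI, SLUG KO, siSMAD2/3/4 and WT against MI. The MALAT1 interaction (-0.21) and MEG3 after siSMAD2/3/4 (-1.34) gained a call with the block, and MALAT1 after siSMAD2/3/4 (-0.37) and KCNQ1OT1 in WT against MI (0.70) lost one. For MEG3 the direction was fixed by the filter. Low counts limit H19, MEG3 and HOTAIR in the groups where they are near 0.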
